A study of Rattus norvegicus with 8 samples.

Results

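The glucocorticoid receptor gene *Nr3c1*, the corticosterone-regenerating enzyme gene *Hsd11b1* and 8 genes known to respond to glucocorticoids were examined in the Achilles tendon of rats 12 hours after a treadmill run. The 10 genes were chosen by name, with earlier results of these rats in view, and 9 of the 10 were found by that name among the 32883 genes of the count table. *Nr3c1* was not analysed here. All 9 genes found passed the filter on low counts, and 13937 genes were tested in all. Whole-tissue mRNA was sequenced from the right Achilles tendon of 8 wild-type male Sprague-Dawley rats, aged 8 to 10 weeks. In the post-running group (12 h p.r., n = 4) the rats ran uphill for 1 hour and were killed 12 hours later, whereas the naïve controls (NC, n = 4) stayed in their cages. For its single-run experiment the study states that controls were killed together with the 12 h p.r. rats. Its account of the sequenced rats does not repeat this. The running rats had been trained briefly on the treadmill and were kept moving with airflow and a mild electric stimulus, so the run, the handling and the stimulation cannot be told apart in this comparison.

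Glucocorticoids, of which corticosterone is the main one in rats, are adrenal steroids released on a daily rhythm and in response to stress. Their receptor waits in the cytoplasm bound to heat shock proteins and, once it has bound hormone, moves to the nucleus, attaches to response elements in DNA and raises or lowers the transcription of nearby genes. In tissues, 11β-hydroxysteroid dehydrogenase type 1, the product of *Hsd11b1*, converts the inert 11-dehydrocorticosterone back to corticosterone. In tendon, locally injected glucocorticoids are known to relieve pain and to weaken the tissue. Corticosterone was not measured in the data used here, and the hour of the day at which the rats were killed was not given in the sources used here.

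The libraries held between 7350509 and 10648648 counts in the 12 h p.r. group and between 8385779 and 12951397 in the NC group. All 7 tenocyte markers were detected, and their summed level ran from 13503 to 43365 CPM (counts scaled to library size) at 12 h p.r. and from 23576 to 35973 CPM in NC, so the labelled tissue carried its defining transcripts. A pair of libraries stood apart in the summed markers of neighbouring tissue. The summed level of 8 skeletal muscle markers was between 1638 and 9832 CPM in 7 rats and reached 54603 CPM in 12 h p.r. replicate 3. The sum of 8 cartilage and bone markers was between 35.7 and 983 CPM in 7 rats and reached 2667 CPM in NC replicate 3. Single markers were also high in 12 h p.r. replicate 1, with *Bglap* at 148, *Col2a1* at 167 and *Ibsp* at 62.5 CPM. In the remaining rats these were at most 0.79, 10.8 and 6.38 CPM. *Spp1* (504 CPM) and *Acan* (87.4 CPM) did not set that rat apart, as 12 h p.r. replicate 4 had 493 and 114 CPM. Fold changes without 12 h p.r. replicate 3 and NC replicate 3 are given below for the genes concerned. That fit kept 12 h p.r. replicate 1.

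Promoter windows were available from RefSeq for 6 of the 9 genes. The windows covered the 250 bases before each transcription start on the rat assembly GRCr8. They were searched on both strands for the arm TGTTCT of the glucocorticoid response element, for the full element, in which the arm follows its own reverse complement after a gap of 3 bases of any kind, and for 2 motifs of other control systems, the cyclic AMP response element TGACGTCA and the E-box CACGTG, the element bound by the circadian clock. Of 33469 windows of this length the full element occurred in 4 (0.012%), the arm in 17.5%, the cyclic AMP response element in 1.59% and the E-box in 5.59%. Windows of *Fkbp5* and *Tsc22d3*, which showed large differences between the groups, and of *Dusp1*, which did not and was the one gene of the 6 with any match, are shown to let the start regions be compared. The windows lie at chr20:6543556-6543805 (minus strand) for *Fkbp5*, at chrX:109010035-109010284 (minus strand) for 1 of the 3 starts of *Tsc22d3*, and at chr10:17184603-17184852 (plus strand) for *Dusp1*. Capitals mark the matches.
Fkbp5: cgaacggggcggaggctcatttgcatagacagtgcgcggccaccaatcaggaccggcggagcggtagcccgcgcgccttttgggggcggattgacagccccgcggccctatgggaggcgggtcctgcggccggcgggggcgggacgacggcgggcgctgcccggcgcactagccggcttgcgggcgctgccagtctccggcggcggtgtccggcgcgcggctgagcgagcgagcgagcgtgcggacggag
Tsc22d3: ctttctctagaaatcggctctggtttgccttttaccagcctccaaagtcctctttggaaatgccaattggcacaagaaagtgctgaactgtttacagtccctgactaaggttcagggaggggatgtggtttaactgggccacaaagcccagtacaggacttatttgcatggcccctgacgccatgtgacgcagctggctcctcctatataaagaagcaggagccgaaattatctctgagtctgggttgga
Dusp1: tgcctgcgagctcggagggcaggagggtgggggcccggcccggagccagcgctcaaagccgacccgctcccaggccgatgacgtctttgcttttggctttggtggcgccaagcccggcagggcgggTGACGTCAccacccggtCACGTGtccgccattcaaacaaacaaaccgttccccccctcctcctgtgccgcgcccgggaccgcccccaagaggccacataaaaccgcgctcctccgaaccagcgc
The *Dusp1* window held 1 cyclic AMP response element beginning 124 bases before the start and 1 E-box beginning 107 bases before it. None of the 4 motifs occurred in the windows of *Fkbp5*, *Tsc22d3* (3 windows), *Klf9*, *Sgk1* (3 windows) or *Errfi1*, which says only that these letters are not in these windows.

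In resting tendon, the 9 genes differed widely in level per transcript length. In FPKM, which scales the counts to transcript length and library size, *Tsc22d3* was the highest in NC at 282 ± 109 (SD, n = 4), which is at the 97.9th percentile of the tested genes. *Dusp1* followed at 79.3 ± 27.1, *Errfi1* at 65.7 ± 33, *Klf9* at 51.3 ± 7.43 and *Fkbp5* at 44.6 ± 19.4 FPKM. These 4 neighbours in the order overlapped in their single-rat values. *Cebpd* had 29.3 ± 4.16, *Sgk1* 22.9 ± 4.57 and *Hsd11b1* 14.6 ± 1.70 FPKM. *Zbtb16* was the lowest, at 8.54 ± 2.53 FPKM and the 49.9th percentile. At 12 h p.r. *Tsc22d3* was still the highest, at 129 ± 19.5 FPKM, and *Zbtb16* the lowest, at 3.22 ± 0.50 FPKM.

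*Fkbp5*, *Zbtb16* and *Tsc22d3* were lower at 12 h p.r. than in NC, by 2.69, 2.65 and 2.17 times as fitted by edgeR. They are among the genes most widely used as readouts of receptor activity. *Fkbp5* encodes FKBP51, a co-chaperone that lowers the receptor's affinity for hormone and so closes a feedback loop. The levels of *Fkbp5* were 73.5, 39.3, 60.7 and 51.8 CPM in 12 h p.r. replicates 1 to 4 and 194, 71.6, 125 and 216 CPM in NC replicates 1 to 4. The groups overlapped through a single pair of rats, as 12 h p.r. replicate 1 lay just above NC replicate 2. The log2 fold change of *Fkbp5* was -1.43 ± 0.33 (SE). In whole tissue, fewer cells of a type and less RNA per cell cannot be told apart, here or in any result that follows.

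*Tsc22d3* encodes GILZ, a leucine zipper protein that carries part of the anti-inflammatory action of glucocorticoids. Its levels were 309, 230, 224 and 247 CPM at 12 h p.r. and 505, 430, 398 and 858 CPM in NC, so every running rat lay below every control rat. The log2 fold change was -1.11 ± 0.25. *Zbtb16* encodes the zinc finger repressor PLZF, a well-known glucocorticoid-induced gene. It had 9.58, 9.75, 7.14 and 7.60 CPM at 12 h p.r. and 22, 16.8, 19.3 and 31.9 CPM in NC, again without overlap, and its log2 fold change was -1.40 ± 0.22. The plot of levels by rat shows the 3 genes beside the other 6.

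**Figure D1:**
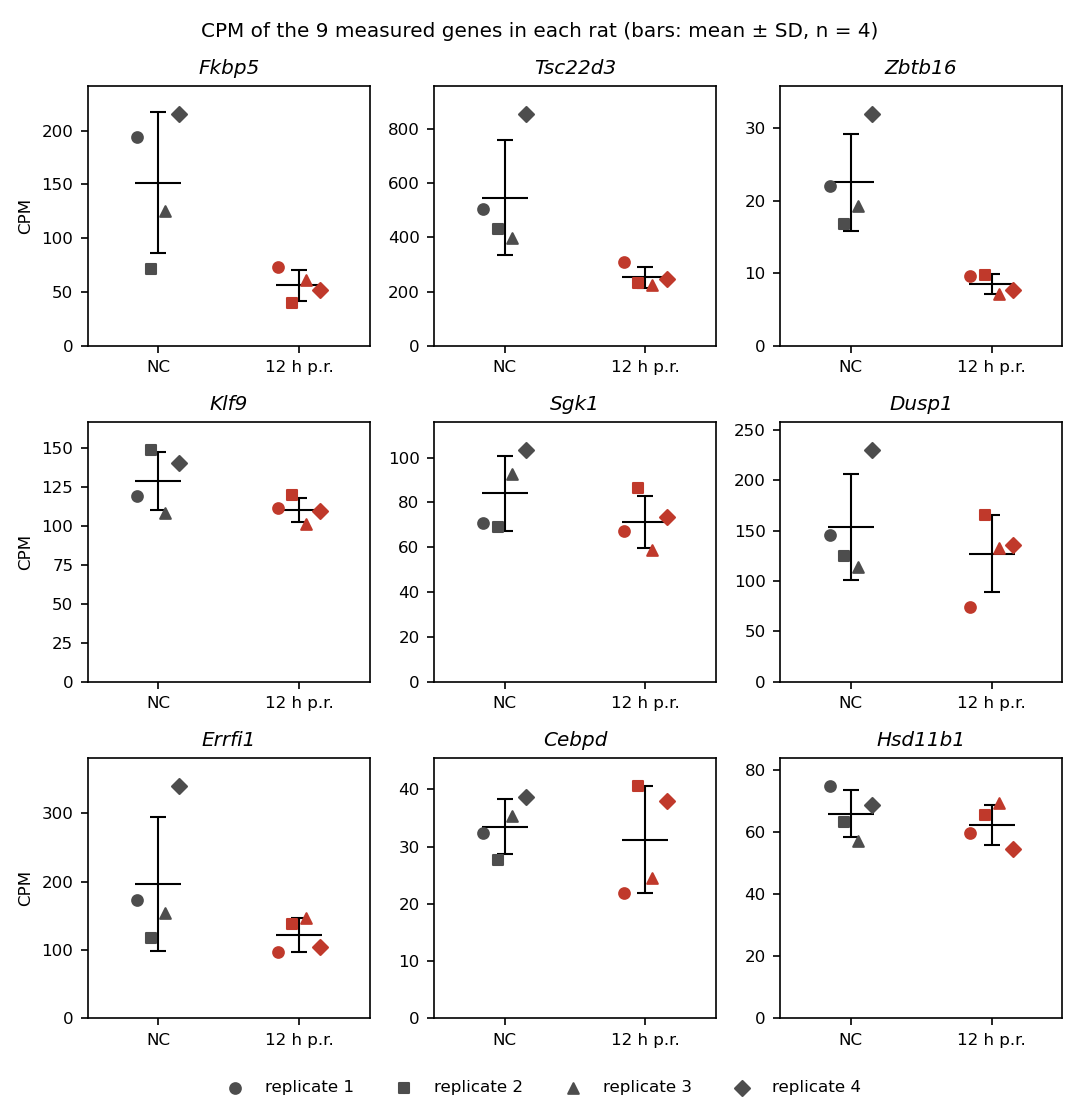
Level of the 9 genes in each rat, in CPM (vertical axes, each starting at 0), with the 12 h p.r. group and the NC group side by side; points are rats, and the mean and SD of each group (n = 4) are drawn beside them. For *Tsc22d3* and *Zbtb16* every running rat lies below every control rat, and for *Fkbp5* a single running rat (73.5 CPM) lies above the lowest control rat (71.6 CPM).

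The growth-control and kinase-pathway genes differed less. *Errfi1* encodes MIG6, a feedback inhibitor of the epidermal growth factor receptor. It had 97.3, 138, 147 and 105 CPM at 12 h p.r. and 174, 117, 154 and 340 CPM in NC, with overlapping groups and a log2 fold change of -0.69 ± 0.31. NC replicate 4 stood well above the rest, and without that rat the log2 fold change was -0.29. *Dusp1* encodes a phosphatase that switches off p38 and JNK kinases. Its levels were 74.3, 166, 132 and 136 CPM at 12 h p.r. and 146, 125, 114 and 230 CPM in NC, the lowest value being in a runner and the highest in a control rat, with the other 6 rats mixed. The log2 fold change of *Dusp1* was -0.28 ± 0.28, and it was -0.02 without NC replicate 4 and -0.43 without 12 h p.r. replicate 2. *Sgk1*, a kinase that regulates sodium transport and cell survival, had 67.4, 86.4, 58.7 and 73.3 CPM at 12 h p.r. and 70.9, 69.2, 92.8 and 103 CPM in NC. Its groups overlapped, with a log2 fold change of -0.24 ± 0.17, which was -0.12 without NC replicate 4.

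The transcription factor genes *Klf9* and *Cebpd* were closer still. *Klf9* encodes a zinc finger factor that responds to glucocorticoids and to thyroid hormone. It had 112, 119, 101 and 109 CPM at 12 h p.r. and 119, 149, 108 and 140 CPM in NC, so the groups overlapped at the lower control values. Its log2 fold change was -0.23 ± 0.12. *Cebpd* encodes a bZIP factor that responds both to glucocorticoids and to inflammatory cytokines. Its levels were 21.9, 40.6, 24.5 and 37.9 CPM at 12 h p.r. and 32.3, 27.6, 35.4 and 38.7 CPM in NC, with a runner at either end of the order. The log2 fold change of *Cebpd* was -0.10 ± 0.21, and it ran from -0.25 without 12 h p.r. replicate 2 to 0.03 without 12 h p.r. replicate 1.

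*Hsd11b1*, on the supply side of the pathway, differed between the groups by less than the spread between rats. It had 59.7, 65.5, 69.4 and 54.7 CPM at 12 h p.r. and 74.9, 63.2, 57.2 and 68.7 CPM in NC, and the groups lay across each other. The log2 fold change was -0.08 ± 0.11, and it ran from -0.15 to -0.02 as single rats were left out.

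None of the 9 genes passed an adjusted p of 0.05 in edgeR's quasi-likelihood test, where 1 of 13937 genes (0.00718%) did. The lowest adjusted p among the 9 was 0.221, for *Zbtb16*, which ranked 7th by p among all genes, and *Tsc22d3* (0.385) and *Fkbp5* (0.392) ranked 52nd and 71st. At an unadjusted p under 0.05, 3 of the 9 genes were lower at 12 h p.r., against 4.08% of all genes tested, and 0 were higher, against 5.44% (9.51% of all genes in either direction). DESeq2, run on the same counts, passed 3 of the 9 genes and 0.694% of the 13825 genes to which it gave an adjusted p. Its adjusted p was 0.00505 for *Fkbp5*, 0.00374 for *Tsc22d3* and 1.51e-05 for *Zbtb16*. In 2 of the 9 genes every runner lay below every control rat, against 2.55% of all genes, and in 0 every runner lay above, against 3.52% (6.06% in either direction). All 9 log2 fold changes were below 0, against 45.8% of all genes, and their median was -0.28, against 0.02. As the genes were chosen with this contrast known, these values describe where the genes lay and are no separate test of them.

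**Figure D2:**
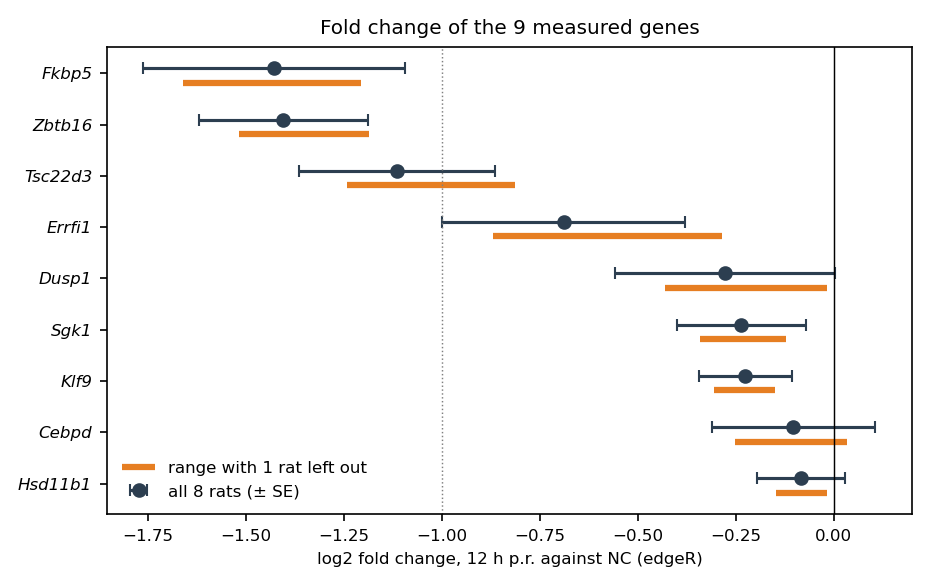
Log2 fold change of each gene, 12 h p.r. against NC, from the edgeR fit across all genes (horizontal axis; points with SE, 8 rats), with the range obtained as each rat was left out in turn (orange bars); the dotted line marks a 2-fold lower level. *Fkbp5*, *Zbtb16* and *Tsc22d3* lie near or beyond that line and stay below -0.81 whichever rat is left out, whereas the bar of *Cebpd* crosses 0.

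The lower levels of the first 3 genes did not rest on a single rat. With any 1 rat dropped, the log2 fold change ran from -1.66 to -1.21 for *Fkbp5*, from -1.52 to -1.19 for *Zbtb16* and from -1.24 to -0.81 for *Tsc22d3*. In each case the smallest difference was the one without NC replicate 4. Without 12 h p.r. replicate 3 and NC replicate 3, the rats that stood apart in muscle and in cartilage and bone markers, the values were -1.55, -1.40 and -1.19.

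NC replicate 4 had the highest level of the 8 rats in 6 of the 9 genes, namely *Fkbp5*, *Tsc22d3*, *Zbtb16*, *Sgk1*, *Dusp1* and *Errfi1*. Measured against the mean of the NC group on the log2 CPM scale, the 9 genes averaged 0.46 in that rat and 0.02, -0.32 and -0.17 in NC replicates 1 to 3. In the 12 h p.r. group the averages were -0.66, -0.46, -0.63 and -0.60, below those of all 4 control rats. These averages include *Fkbp5*, *Tsc22d3* and *Zbtb16*, whose differences were known when the genes were chosen, so the averages cannot tell whether the whole set shifted. In 12 h p.r. replicate 2, *Sgk1* (0.06), *Dusp1* (0.16) and *Cebpd* (0.29) lay above the NC mean. *Hsd11b1* (-0.004), *Klf9* (-0.10) and *Errfi1* (-0.39) lay below it in that rat. The control rats differed from one another more than the runners did in 7 of the 9 genes. Neither this share nor that of genes highest in NC replicate 4 was counted over all genes. The SD of log2 CPM of *Fkbp5* was 0.72 in NC, at the 94.5th percentile of all genes, and 0.38 at 12 h p.r., while the median gene had 0.20 and 0.24. The highest control level was 3.01 times the lowest for *Fkbp5*, 2.89 times for *Errfi1* and 2.16 times for *Tsc22d3*.

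**Figure D3:**
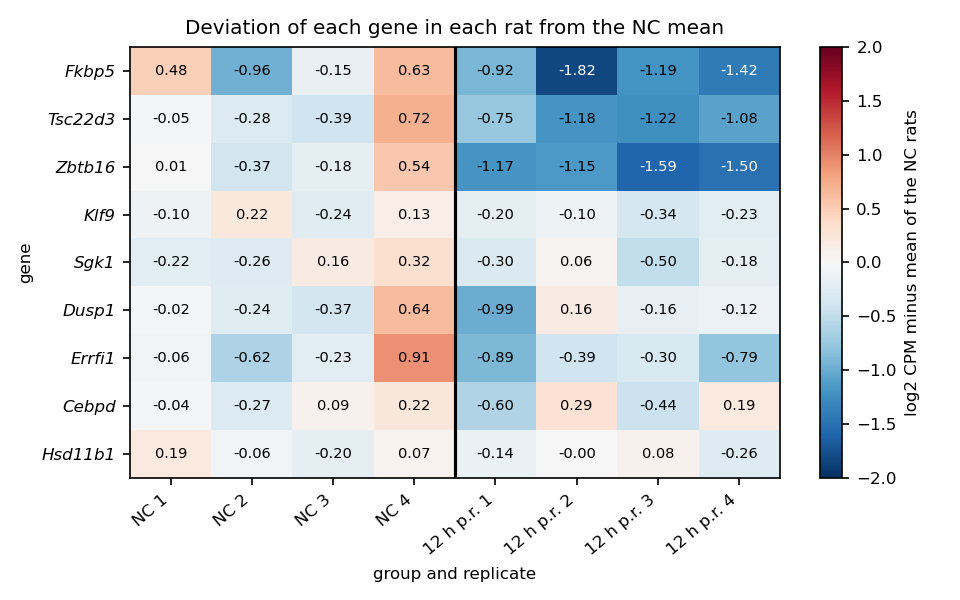
Level of each gene (rows) in each rat (columns) as the difference in log2 CPM from the mean over the 4 NC rats; blue and red shades and the printed values give the difference. The rows of *Fkbp5*, *Zbtb16* and *Tsc22d3* are below the NC mean in all 4 runners, and the column of NC replicate 4 is above it in all 9 genes.

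Over the 8 rats, after the mean of each group was subtracted, the 5 genes whose log2 CPM lay closest to the pattern of *Fkbp5* were *Cabp7*, *Nudt1*, *Pramef8*, *Fgl2* and *RGD1563888*, with Pearson's r from 0.96 to 0.93. The first 3 had a mean of only 4.2 to 5.58 CPM in NC. These coefficients are descriptive, being the highest of all tested genes over 8 libraries.

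Transcripts of leukocytes, which also express *Fkbp5* and *Tsc22d3*, varied between the rats. The summed level of 10 leukocyte markers was 1168, 2811, 648 and 1816 CPM in 12 h p.r. replicates 1 to 4 and 3657, 913, 2113 and 3927 CPM in NC replicates 1 to 4. *Lyz2* made up much of the sum, with 2682 CPM in NC replicate 1 and 3075 CPM in NC replicate 4. The mean of log2 CPM over the 10 markers was 5.96, 6.64, 5.11 and 6.14 in the runners and 6.79, 5.38, 6.51 and 6.64 in the controls. By either measure NC replicate 2 was the lowest of the controls and 12 h p.r. replicate 2 the highest of the runners. Among the controls *Fkbp5* and *Zbtb16* were lowest in NC replicate 2 and *Tsc22d3* in NC replicate 3. Among the runners *Fkbp5* was lowest in replicate 2, and *Tsc22d3* and *Zbtb16* in replicate 3. Of the 10 markers 9 had a log2 fold change below 0, against 45.8% of all genes. None of the markers had an unadjusted p under 0.05, and none was at 0. Their median log2 fold change was -0.28, the same as that of the 9 genes. With this mean as a covariate, the log2 fold changes were -1.22 for *Fkbp5*, -1.02 for *Tsc22d3* and -1.26 for *Zbtb16*. Other markers differed as well, at an unadjusted p under 0.05, a threshold at which 5.44% of all genes were higher and 4.08% lower. Of the 7 tenocyte markers, *Scx*, *Mkx* and *Thbs4* were higher at 12 h p.r. at an unadjusted p under 0.05, with log2 fold changes of 0.62, 0.78 and 0.56. *Comp* (0.60), *Tnmd* (-0.07), *Fmod* (-0.06) and *Col1a1* (-0.11) had an unadjusted p above 0.05, so 4 of the 7 values were above 0 and 3 below. At an unadjusted p under 0.05, of 7 endothelial markers *Egfl7* (0.40) and *Tie1* (0.31) were higher and *Emcn* (-0.40) was lower. The part of these cell types, leukocytes included, in the levels of the 9 genes was not tested.

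The hormone supply and the chaperones of the receptor were compared as a list of 15 genes, of which 13 were tested. By edgeR 0 passed the adjusted threshold, and at an unadjusted p under 0.05 1 was higher and 1 was lower, with a median log2 fold change of -0.05. Of all genes tested, 5.44% were higher and 4.08% were lower at that p. Every runner lay above every control rat in 3.52% of all genes and below in 2.55%. *Hsd11b2*, which encodes the enzyme that inactivates corticosterone, was scarce at 1.15 ± 0.45 FPKM in NC, far below *Hsd11b1*, and its log2 fold change was -0.14 ± 0.53. *H6pd*, which supplies the cofactor for 11β-hydroxysteroid dehydrogenase type 1, had a log2 fold change of 0.11 ± 0.11. The mineralocorticoid receptor gene *Nr3c2*, whose product also binds corticosterone, was at 1.95 ± 0.76 FPKM in NC, with a log2 fold change of 0.20 ± 0.31. *Hspa8*, a heat shock cognate among the receptor's chaperones, had 487 to 516 CPM at 12 h p.r. and 569 to 692 CPM in NC without overlap. The log2 fold change of *Hspa8* was -0.30 ± 0.12, with an adjusted p of 0.478 by edgeR. *Ptges3*, the p23 co-chaperone, also lay lower in every runner, with a log2 fold change of -0.19 ± 0.08. The steroid 5α-reductase gene *Srd5a1* lay higher in every runner, with a log2 fold change of 0.52 ± 0.21 and an adjusted p of 0.488. *Hsp90ab1* and *Fkbp4*, the latter encoding the co-chaperone that competes with FKBP51, had log2 fold changes of 0.20 ± 0.12 and -0.05 ± 0.10.

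Of 11 receptor cofactors 10 were tested, 0 had an unadjusted p under 0.05, against 9.51% of all genes, and their median log2 fold change was 0.02. The values stayed between -0.21 for the acetyltransferase gene *Crebbp* and 0.14 for the chromatin remodeller gene *Smarca4*. The coactivator gene *Ncoa1* had -0.19 ± 0.11 and the deacetylase gene *Hdac2* -0.15 ± 0.09.

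A further 36 genes known to be induced by glucocorticoids were all tested, and as a list they stood closer to the median gene. By edgeR 0 passed the adjusted threshold. At an unadjusted p under 0.05, 3 were lower and 2 were higher, 13.9% of the list in all, against 9.51% of all genes tested. In 2 of the 36 every runner lay below every control rat, against 2.55% of all genes. Of the 36, 25 had a log2 fold change below 0, against 45.8% of all genes, and the median was -0.08. DESeq2 passed 2, *Map3k6* and *Fam107a*, with adjusted p values of 0.0109 and 0.0143, where it passed 0.694% of all genes. *Map3k6*, a stress-activated kinase gene, had 19.99 to 22.3 CPM at 12 h p.r. and 29.6 to 53.9 CPM in NC without overlap, and a log2 fold change of -0.91 ± 0.20. *Fam107a*, an actin-binding protein gene, had 48.5 to 89.5 CPM at 12 h p.r. and 104 to 171 CPM in NC, again without overlap, and a log2 fold change of -0.94 ± 0.22. The clock gene *Per1*, which glucocorticoids induce directly, had a log2 fold change of -0.70 ± 0.20 and overlapped in that 12 h p.r. replicate 1 (83.2 CPM) lay above NC replicate 1 (80.6 CPM). *Angptl4*, an inhibitor of lipoprotein lipase, went the other way with a log2 fold change of 2.1 ± 0.63. Its 12.4, 12.6, 82.1 and 51.8 CPM at 12 h p.r. against 5.18 to 13.1 CPM in NC show that 2 of the 4 runners carried the difference, the highest being the rat with the high muscle markers.

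The list of genes known to be repressed by glucocorticoids held 17 names, of which 10 were tested. At an unadjusted p under 0.05 it had 1 higher and 1 lower, against 5.44% and 4.08% of all genes. Its median log2 fold change was 0.06. *Ccl2*, the monocyte chemoattractant, had 23.0, 111, 51.2 and 82.4 CPM at 12 h p.r. and 13.9 to 25.1 CPM in NC, with a log2 fold change of 1.87 ± 0.42 and an adjusted p of 0.385 by edgeR and 0.00263 by DESeq2. The adhesion molecule gene *Vcam1* had -0.77 ± 0.32. *Icam1* (0.18 ± 0.12) and *Col3a1*, the type III collagen chain (-0.55 ± 0.27), had an unadjusted p above 0.05.

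Immediate early genes, a class to which *Dusp1* also belongs, had 0 of 12 tested genes with an unadjusted p under 0.05, against 9.51% of all genes. Their median log2 fold change was -0.10. The lowest value was -0.59, for *Egr2* and for *Nr4a1*, while *Atf3* had -0.52 ± 0.24 and *Egr1* -0.42 ± 0.34. Of 15 clock genes, 2 were lower and 2 were higher at an unadjusted p under 0.05, against 4.08% and 5.44% of all genes. *Per2*, which is under both clock and glucocorticoid control, had 39.9 to 59.3 CPM at 12 h p.r. and 75.7 to 117 CPM in NC and a log2 fold change of -0.88 ± 0.18, with an adjusted p of 0.385 by edgeR and 0.00553 by DESeq2. *Cry1*, a repressor of the clock, lay lower in every runner (-0.85 ± 0.23), and *Arntl*, which encodes its activator BMAL1, lay higher in every runner (0.72 ± 0.19). Every runner lay below every control rat in 2.55% of all genes and above in 3.52%. *Nr1d1*, the REV-ERBα gene, had 0.51 ± 0.20 with overlapping groups. The study gives a shared time of killing for its single-run experiment but does not repeat it for the sequenced rats. The part of the clock in the levels of *Fkbp5*, *Tsc22d3*, *Zbtb16* and *Klf9* was not tested.

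**Figure D4:**
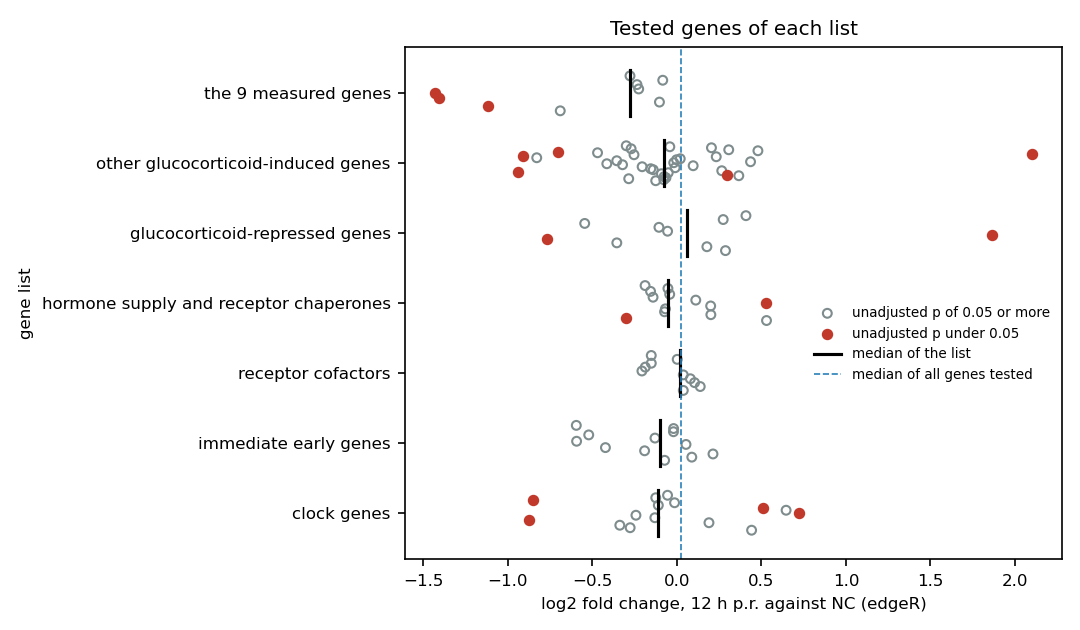
Log2 fold change, 12 h p.r. against NC, of every tested gene in each list (rows; horizontal axis from the edgeR fit), with filled red points for an unadjusted p under 0.05, a black bar for the list's median and a dashed line for the median of all tested genes (0.02). The 9 genes have a median of -0.28, and the medians of the 6 other lists lie between -0.11 and 0.06. Cell type markers are not drawn, and the 10 leukocyte markers also had a median of -0.28.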

How the data were processed

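RNA of the right Achilles tendon was captured by polyadenylate tail and sequenced from a strand-specific library. Per the submitters' processing notes, reads were aligned with HISAT2 2.1.0 to Rnor_6.0, counted with featureCounts 1.6.3 and compared with DESeq2 1.30.1. The counts deposited by the authors are whole reads per Ensembl gene and rat, without normalization. The authors also deposited FPKM, whose scaling matched DESeq2 size factors. The strand setting of counting and the treatment of multiply matching reads were not given in the sources used here, so overlapping and antisense genes could share reads. A deposited table of the authors' own comparison (log2 fold changes, p-values and adjusted p-values) was not used.

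Groups came from the sample labels. Counts were fitted with edgeR 4.0.16 in R 4.3.3 (TMM factors, filterByExpr, quasi-likelihood test, Benjamini-Hochberg adjustment over 13937 genes). CPM are counts scaled to TMM-adjusted library size, and SE is the log2 fold change over the root of F. Non-overlap was counted on CPM. DESeq2 1.42.0 and limma 3.58.1 on log2 FPKM were alternatives. As the study used DESeq2, its results are given beside edgeR's. Both tools were tested on simulated data of 13937 genes. Of 67, 67 and 66 genes changed 1.5, 2 and 3 times, edgeR recovered 5, 27 and 51 and DESeq2 16, 43 and 56. Of the unchanged genes edgeR called 10 and DESeq2 45. No libraries were duplicates. Other alternatives were the scaling, the filter, a replicate block, marker levels as covariates and leaving out rats. The leukocyte covariate and the fit without both rats that stood apart were chosen after seeing the data.

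The 10 genes and all lists were chosen with earlier results of these data known. All genes found are named. In each list the up to 4 genes with the smallest p are named, with *Nr3c2*, *Hsd11b2*, *H6pd*, *Hsp90ab1*, *Fkbp4* and *Per1* whatever their values, and the 5 genes most like *Fkbp5*. Cell type markers named with values were chosen after those were seen. Nothing states that the rats of a group were treated on separate days, so p-values measure the spread between these rats. The depth of 7350509 to 12951397 counts gave 60 to 376 reads for *Zbtb16*, the least covered of the 9 genes, and 1749 to 10093 for *Tsc22d3*.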

Additional observations from a re-analysis of the deposited data

Results flagged for a closer look

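Within groups of 4 rats, 1 value stood apart from the other 3 by more than Dixon's 95% limit. *Hsp90ab1*, a chaperone of the receptor, had 933 CPM in 12 h p.r. replicate 3, against 818 to 827 CPM in the other 3 runners. This is also the rat with the high skeletal muscle markers, whose part in this value was not tested. Chance flags about 1 in 20 groups, and 74 groups were searched. None of the 9 glucocorticoid genes had such a value in either group.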

How the results depend on the processing

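*Fkbp5*, *Tsc22d3* and *Zbtb16* kept log2 fold changes below 0 and an unadjusted p under 0.05 under all 19 alternatives. Across these alternatives the adjusted p of the 3 genes reached 0.773, 0.738 and 0.623. The genes were chosen with this contrast known, so these refits of the same rats are a description. Under DESeq2 the 3 genes also passed the adjusted threshold, with log2 fold changes of -1.44, -1.12 and -1.41. DESeq2 thereby passed 3 of the 9 genes, 2 of the other glucocorticoid-induced genes, 1 repressed gene and 1 clock gene, where edgeR passed 0 of each. In all it passed 96 genes against 1 by edgeR, and the cause was not tested. On simulated data DESeq2 called 45 unchanged genes and edgeR 10, which does not show how many of the 96 genes were called wrongly. The count of the 9 genes lower at an unadjusted p under 0.05 ran from 3 to 5 as rats were left out, the highest being without NC replicate 3, when *Errfi1* and *Klf9* were added. *Cebpd* changed sign, its log2 fold change being 0.0226 with the leukocyte covariate and 0.0246 without both rats that stood apart, and from -0.252 to 0.0327 as single rats were left out (above 0 without 12 h p.r. replicate 1); the cause was not tested. Same-numbered rats did not deviate together (correlations of 0.07, -0.19, 0.12 and 0.08), and the labels state no pairing. With 4 rats a group, this cannot exclude a shared batch. With the replicate block 0 of the 9 genes passed the adjusted threshold, 3 were lower at an unadjusted p under 0.05, and the log2 fold changes of *Fkbp5*, *Tsc22d3* and *Zbtb16* were -1.34, -1.05 and -1.38. With 4 rats a group, a single-gene permutation could not go below 0.0286.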
